A study of Mus musculus with 9 samples.

Results

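The genes described here are 52 enzymes that break down amino acids or dispose of their nitrogen in mouse liver, named in a list and grouped by pathway. Every array probe annotated to one of these symbols was taken, 90 probes in all. Of the 52 genes 49 had a probe, and 47 passed a filter on dim signals and were tested among 10408 genes. Gls2, Got1 and Sds were not analysed here. Tat (tyrosine aminotransferase, detected on 2 of 9 arrays) and Hibch (detected on 0 of 9) did not pass the filter. Of the 47 tested genes 46 were detected on all 9 arrays, so that the filter did not select them for a high level in 1 group; the exception was Amt, detected on 4. The genes lie on many chromosomes. Cps1, for example, spans 67122426 to 67231267 on chromosome 1 (Entrez Gene 227231) and Csad 102176997 to 102205052 on chromosome 15 (Entrez Gene 246277), both in GRCm38.

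The study measured liver RNA of male C57BL/6 mice aged 8 weeks on Illumina bead arrays, 3 to a group. The controls were euthyroid, that is, of normal thyroid state. A second group had been made hyperthyroid with triiodothyronine (T3) for 3 days. The last group received T3 together with a FoxO1 small interfering RNA (siRNA), delivered to the liver by hydrodynamic tail vein injection, which forces a large volume quickly into the circulation. The labels name no group with an injection or an siRNA of another sequence, so the siRNA and the injection cannot be told apart. Whether the arrays come from separate mice is not said, so the spread behind each p-value may be technical.

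The liver takes up most amino acids that arrive from the gut and from muscle. It turns their carbon into glucose, ketone bodies or fat and their nitrogen into urea, through a cycle of enzymes divided between mitochondria and cytosol. Fasting, glucagon and glucocorticoids are known to raise many of these enzymes and insulin to lower them. FoxO1 is a forkhead transcription factor that insulin signalling holds outside the nucleus, and thyroid hormone acts through nuclear receptors that bind DNA at hormone response elements.

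To show regulatory sequence near these genes, RefSeq promoter windows (GRCm38.p6, 250 bases before to 50 after the annotated start) were searched on both strands for the FoxO core GTAAACA and for AGGTCA, the half-site of many nuclear receptors, also as a direct repeat with 4 bases of any kind between the 2 copies, which contains 2 half-sites. Windows were held for 41 of the 52 genes, 45 windows in all. The half-site stood in 17 of these 45 windows (37.8%) and in 16.3% of all 32851 windows. The FoxO core stood in 1 of the 45 (2.22%), that of Hibadh, and in 3.65% of all windows, and the spaced repeat in none of the 45 and in 0.0152% of all. Among the 15 genes with a window that were lower in the siRNA group than in the T3 group, 5 held the half-site (Tdo2, Haao, Ahcy, Gnmt and Aass) and none the FoxO core. A match describes letters in a window and not a bound site. The windows shown were chosen after the search because they hold a match: those of the 3 of these 5 genes with the largest falls, and that of Hibadh. Among the genes called lower with the siRNA against T3, Csad, Prodh, Tdo2 and Hpd fell most. The windows of Csad, Prodh and Hpd held neither motif. Bhmt changed by -1.04 without being called, and its window, not shown, held 3 half-sites. The windows are given in 5′ to 3′ direction on the strand of the gene, with the matched letters in capitals.
Tdo2 (minus strand, chr3:81975679-81975978): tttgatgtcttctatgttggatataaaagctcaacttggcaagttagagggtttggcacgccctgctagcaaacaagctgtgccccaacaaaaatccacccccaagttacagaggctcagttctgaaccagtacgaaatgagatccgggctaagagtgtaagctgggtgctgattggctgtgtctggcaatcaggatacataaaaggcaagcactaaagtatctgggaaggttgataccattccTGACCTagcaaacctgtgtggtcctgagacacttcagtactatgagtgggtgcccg
Haao (minus strand, chr17:83846741-83847040): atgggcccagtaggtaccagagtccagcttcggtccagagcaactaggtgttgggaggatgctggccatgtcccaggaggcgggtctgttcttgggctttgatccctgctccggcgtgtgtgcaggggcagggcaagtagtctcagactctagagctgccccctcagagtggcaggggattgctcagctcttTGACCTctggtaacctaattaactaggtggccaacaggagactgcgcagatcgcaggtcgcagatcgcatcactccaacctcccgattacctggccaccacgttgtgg
Ahcy (minus strand, chr2:155074448-155074747): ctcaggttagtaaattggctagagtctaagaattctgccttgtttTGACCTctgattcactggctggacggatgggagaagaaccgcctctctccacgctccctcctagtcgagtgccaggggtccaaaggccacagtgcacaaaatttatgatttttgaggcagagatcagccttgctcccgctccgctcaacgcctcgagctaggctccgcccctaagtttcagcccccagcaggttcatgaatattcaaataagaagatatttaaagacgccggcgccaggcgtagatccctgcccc
Hibadh (minus strand, chr6:52640251-52640550): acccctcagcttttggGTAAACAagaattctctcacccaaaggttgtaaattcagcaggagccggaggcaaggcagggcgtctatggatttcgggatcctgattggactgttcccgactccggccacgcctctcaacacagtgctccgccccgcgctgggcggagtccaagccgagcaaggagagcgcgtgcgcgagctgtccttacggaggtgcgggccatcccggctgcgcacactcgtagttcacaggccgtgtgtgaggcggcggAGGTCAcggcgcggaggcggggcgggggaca
Counted from the annotated start as 0, the half-site began at -6 in Tdo2, at -58 in Haao and at -205 in Ahcy, each time as its reverse complement. The window of Haao belongs to a start inside the annotated gene, which spans 83831348 to 83848981 on chromosome 17, and not to its outer end. In Hibadh the FoxO core began at -234 and a half-site at 19.

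All levels below are normalised log2 signals. Changes are differences of group means on that scale with the fitted standard error (SE; limma, n = 3 arrays a group), and a gene is called higher or lower where the p-value adjusted over all 10408 genes (Benjamini-Hochberg) is under 0.05. Levels of different genes come from different probes and are not compared. Between 16481 and 18357 of the 45281 probes were detected on each array. Foxo1, the siRNA's target, read 8.72, 8.87 and 8.73 on the euthyroid arrays, 9.22, 9.63 and 9.78 with T3 and 8.44, 8.55 and 8.44 with the siRNA. The siRNA group was below the T3 group (-1.07 ± 0.14, adjusted p = 0.00171), and no siRNA array reached a T3 array. T3 alone was above euthyroid liver (0.77 ± 0.14, adjusted p = 0.0082), and the siRNA group did not differ from euthyroid liver past the threshold (-0.30 ± 0.14, adjusted p = 0.152).

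Markers of other cell types moved with the groups. The summed level of 10 macrophage markers was 9871 to 10410 on the euthyroid arrays, 11500 to 12960 with T3 and 16500 to 20610 with the siRNA. Of the 10, 6 were called higher with the siRNA than with T3 alone. The group mean rose for 9 of the 10 in that comparison, called or not, among them Vsig4 and Timd4. The exception was the Kupffer cell marker Clec4f, with means of 10.50, 10.42 and 10.31 in euthyroid liver, with T3 and with the siRNA. Cd5l did not pass the filter. Of 11 stellate cell and fibroblast markers 7 were higher and 2 lower, with sums of 16290 to 18730 in euthyroid liver, 13710 to 14490 with T3 and 15240 to 18210 with the siRNA, among them Col1a1 (4.07 ± 0.20, adjusted p = 1.81e-05). Of 11 acute phase genes, secreted by hepatocytes in inflammation, 7 were higher and 1 lower, led by Lcn2 (4.95 ± 0.58, adjusted p = 0.000893), with sums of 188800 to 196900 with T3 and 238300 to 287300 with the siRNA. Both tested cholangiocyte markers were higher with the siRNA (sums of 331.7 to 369.9 with T3 and 621.1 to 705.9 with the siRNA). With T3 against euthyroid liver 6 of 11 stellate cell markers and 2 of 3 erythroid markers were lower (erythroid sums 21740 to 27930 in euthyroid liver and 19190 to 20810 with T3), and 2 of 3 exocrine pancreas markers were higher (11690 to 14100 and 17710 to 18840). The summed level of 10 hepatocyte markers was 343500 to 358800 in euthyroid liver, 355200 to 357500 with T3 and 357500 to 363700 with the siRNA. With the siRNA against T3, Alb (-1.08 ± 0.25, adjusted p = 0.017) and Fgb (-1.33 ± 0.35, adjusted p = 0.0278), both on dim probes, fell. Fgb is also the 1 lower acute phase gene. The other 8, set apart after these values were seen, changed by between -0.06 and 0.16 in that comparison, none past the threshold. With T3 against euthyroid liver these 8 changed by between -0.07 and 0.67, and 1 of the 10 markers was higher. The largest rise was that of Apob, with means of 13.04, 13.71 and 13.66 in euthyroid liver, with T3 and with the siRNA. Of these 8, 7 had raw signals of 34412 or more on every array, where the highest signal of any probe on an array was 58149 to 61453, so a change in them could be compressed. In bulk RNA fewer cells of a type and less RNA per cell cannot be told apart. The part of these shifts in the changes below was not tested.

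With T3 the enzymes moved both ways. Of the 47 genes 7 were higher, namely the urea cycle enzymes Cps1, Asl and Arg1, the tryptophan enzymes Tdo2 and Kmo, Cth of cysteine synthesis and Mccc2 of leucine breakdown. Another 7 were lower, namely Hpd, Prodh2, Gpt, Agxt, Gnmt, Ftcd and Gcdh. Each direction made up 14.9% of the genes, while over all genes tested 7.8% were higher and 10.6% lower. Over the genes with a mean of 10 or more on the log2 scale, a subset added after the results were seen, 8.57% of 2812 were higher and 11.7% lower, and of 38 such enzymes 3 (7.89%) and 7 (18.4%). For 25 of the 47 the arrays of both groups stood apart, against 40.7% of all genes. The median change of the 47 was -0.08, against -0.05 over all genes. The counts were 2 higher and 4 lower with median scaling in place of quantile normalization. Of all genes 2.89% were higher and 5.91% lower with that scaling. The enzyme counts were 11 higher with probes averaged per gene or with the probe of the largest spread. They were 12 lower with a trended and robust variance prior, and 3 to 6 higher and 3 to 7 lower when 1 array was left out. Of all genes 8.7% were higher with probes averaged and 9.31% with the probe of the largest spread. With that prior 13% of all genes were lower. When 1 array was left out 3.82% to 8.05% of all genes were higher and 4.77% to 11.2% lower.

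With the siRNA added to T3, 19 of the 47 genes were lower and none was higher. The 19 came from all pathways but those of glutamate, aspartate and alanine and of serine, glycine and glyoxylate, with 6 of 8 sulfur amino acid enzymes and 4 of 5 tryptophan enzymes among them. With median scaling 3 of those 6 and 1 of those 4 calls were kept, and with hepatocyte marker scaling, which was added after the results were seen, 2 of each. Pathways were not tested against each other. Among all genes tested 7.72% were lower and 11.7% higher. Since many of these enzymes have bright probes, the share was also taken over the 2812 bright genes: 8.36% were lower and 9.99% higher, against 14 of 38 enzymes (36.8%) lower and none higher. The median change of the 47 was -0.27, against 0.01 over all genes, and 32 of 47 groups did not overlap, against 38.4% of all genes. The count of 19 was 8 with median scaling, which moved the median of all genes to 0.17 and left that of the enzymes at -0.27, and 12 to 17 when 1 array was left out, with 12 without siRNA replicate 3. It was 7 with arrays scaled to the mean of the hepatocyte markers. This scaling took the median of the enzymes to -0.05 and that of all genes to 0.24. Of all genes 1.89% were lower with median scaling and 2.85% with hepatocyte marker scaling. When 1 array was left out 3.96% to 6.43% of all genes were lower. The mean of the hepatocyte markers fell by 0.23 with Alb and Fgb in it. Both of these dim probes fell, as given above, while the other 8 markers changed by between -0.06 and 0.16. Scaling to the markers without these 2 was not run.

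Compared with euthyroid liver, the group with T3 and the siRNA had 24 of the 47 genes lower and none higher, among them all 4 histidine enzymes, both proline enzymes and 6 of 10 branched-chain enzymes. Over all genes 26.7% were called, 13.3% lower and 13.4% higher, and over the 2812 bright genes 15.6% were lower, against 23 of 38 enzymes (60.5%). With median scaling 17 enzymes were lower, and with hepatocyte marker scaling 15 were lower and 1 higher. Of all genes 4.51% were lower and 12.6% higher with median scaling. With hepatocyte marker scaling 6.38% of all genes were lower and 20.4% higher. The median change was -0.42, against -0.02 over all genes, and 30 of 47 did not overlap, against 46.1% of all genes. The comparisons share arrays, since the T3 arrays enter the first and the second, the euthyroid arrays the first and the third and the siRNA arrays the second and the third, so their values are given side by side and are not independent. The bar chart of called shares sets the enzymes beside all genes in each comparison, and the heat map shows each gene on each array.

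**Figure D1:**
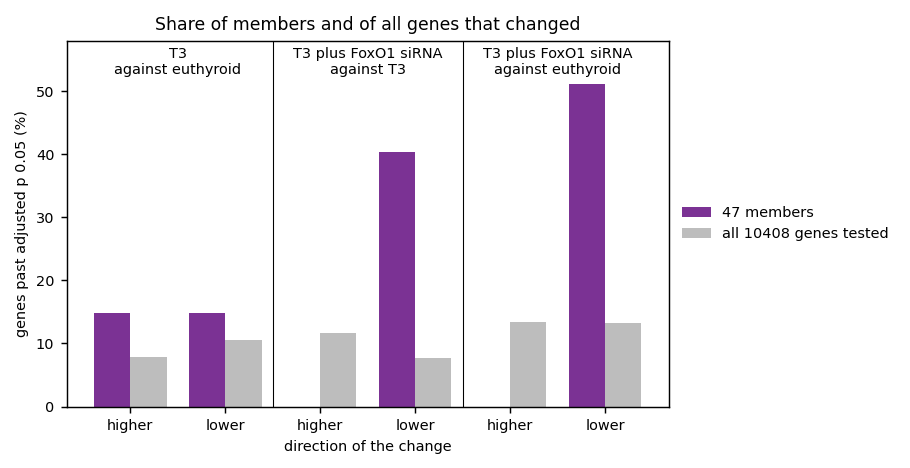
Percent of the 47 tested enzymes (purple bars) and of all 10408 tested genes (grey bars) that were higher or lower past an adjusted p of 0.05, in each of the 3 comparisons. The enzymes reach 40.4% and 51.1% lower in the comparisons of the siRNA group, with none higher.

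**Figure D2:**
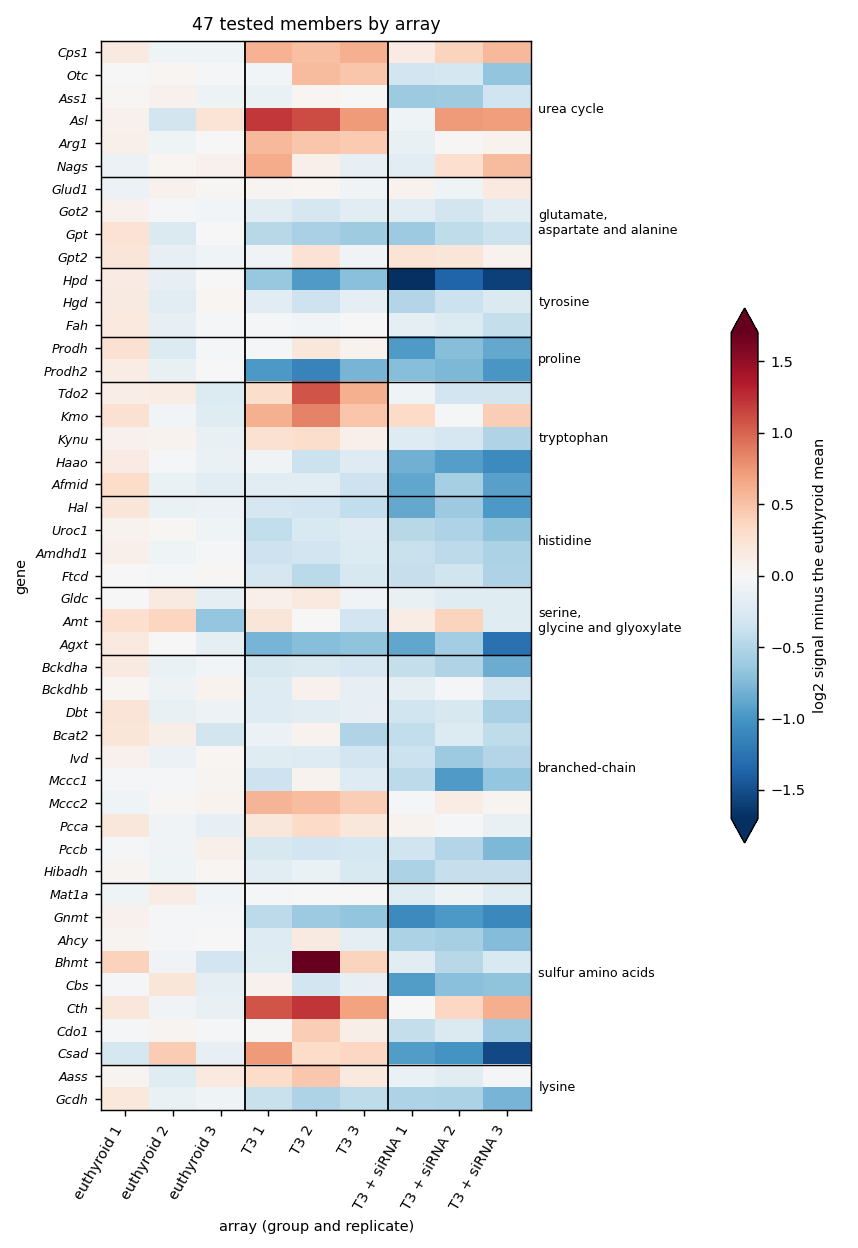
Normalised log2 signal of each tested gene (rows, in pathway blocks) on each of the 9 arrays (columns), as the difference from the mean of the 3 euthyroid arrays; red is above and blue below that mean. The colour scale ends at 1.7, which Bhmt on T3 replicate 2 (2.01) and Hpd on siRNA replicate 1 (-1.75) exceed. Blue predominates on the siRNA arrays, while the T3 arrays hold both colours.

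The urea cycle turns ammonia and the nitrogen of aspartate into urea. Cps1, the carbamoyl phosphate synthetase that admits ammonia to the cycle, read 14.12, 13.89 and 13.89 on the euthyroid arrays, 14.55, 14.48 and 14.57 with T3 and 14.10, 14.35 and 14.52 with the siRNA. All T3 arrays lay above all euthyroid arrays (0.57 ± 0.13, adjusted p = 0.0157), and the siRNA arrays overlapped the T3 arrays (-0.21 ± 0.13, adjusted p = 0.268). Arg1, the arginase that releases urea, read 14.53, 14.38 and 14.44 on the euthyroid arrays, 14.999, 14.92 and 14.90 with T3 and 14.33, 14.47 and 14.51 with the siRNA. The T3 arrays stood apart from both other groups: Arg1 was above the euthyroid level with T3 (0.49 ± 0.10, adjusted p = 0.0105) and lower again with the siRNA (-0.50 ± 0.10, adjusted p = 0.00814), where it differed from euthyroid liver by -0.01 ± 0.10, adjusted p = 0.927. Its second probe gave 0.67 and -0.57 for the first and second comparison. Asl, the lyase that splits argininosuccinate, read 8.89, 8.51 and 9.06 on the euthyroid arrays, 10.02, 9.93 and 9.55 with T3 and 8.75, 9.55 and 9.53 with the siRNA. It was 2.01-fold above the euthyroid level under T3 (1.01 ± 0.24, adjusted p = 0.0202), while its siRNA arrays, lowest on replicate 1, lay at or below the lowest T3 array and overlapped the euthyroid arrays (-0.55 ± 0.24, adjusted p = 0.131).

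Otc, which joins carbamoyl phosphate to ornithine, read 9.28, 9.32 and 9.25 on the euthyroid arrays, 9.24, 9.82 and 9.76 with T3 and 8.95, 8.98 and 8.62 with the siRNA. T3 replicate 1 lay at the euthyroid level, and T3 and euthyroid liver did not differ past the threshold (0.32 ± 0.17, adjusted p = 0.203), while every siRNA array lay below every T3 array (-0.75 ± 0.17, adjusted p = 0.0146); the dimmer probe gave -1.10. Ass1, which makes argininosuccinate, read 14.53, 14.58 and 14.43 on the euthyroid arrays, 14.40, 14.55 and 14.52 with T3 and 13.89, 13.90 and 14.18 with the siRNA. Here the T3 and euthyroid arrays overlapped (-0.02 ± 0.11, adjusted p = 0.917) and the siRNA arrays lay below both (-0.50 ± 0.11, adjusted p = 0.0146 against T3, -0.52 ± 0.11, adjusted p = 0.00947 against euthyroid liver). Nags, which makes the activator of Cps1, was dim, with group means of 6.27, 6.46 and 6.48, and passed in no comparison. Of the 6 genes 3 were thus higher and none lower with T3, 3 lower with the siRNA than with T3, and 1 lower with the siRNA than in euthyroid liver. Over all genes 7.8% were higher with T3, and 7.72% and 13.3% were lower in the other 2 comparisons. The last urea cycle share, 16.7%, was near that of all genes. The call of Cps1 with T3 was lost without euthyroid replicate 2 or 3 (adjusted p = 0.0541 and 0.054), that of Asl without euthyroid replicate 1 or 2 or T3 replicate 1 or 2 (0.0546 to 0.0656), and that of Otc with the siRNA without siRNA replicate 3 (0.0517). With median scaling the rises of Cps1 and Arg1 (0.0719 and 0.107) and the fall of Otc (0.13) did not pass, and with the hepatocyte marker scaling the falls of Ass1 and Arg1 against T3 did not (0.117 and 0.127), nor that of Ass1 against euthyroid liver (0.0509).

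Glutamate, aspartate and alanine pass their nitrogen between each other through aminotransferases. Of 4 tested genes 1 changed. Gpt, the cytosolic alanine aminotransferase, read 13.77, 13.27 and 13.51 on the euthyroid arrays, 13.04, 12.96 and 12.91 with T3 and 12.90, 13.08 and 13.15 with the siRNA. It was lower on all T3 arrays than on any euthyroid array (-0.55 ± 0.14, adjusted p = 0.0239), and the siRNA arrays stayed near the T3 level (0.08 ± 0.14, adjusted p = 0.733; -0.47 ± 0.14, adjusted p = 0.0316 against euthyroid liver). Without euthyroid replicate 1 or 3 or T3 replicate 2 or 3 the first call was lost (adjusted p = 0.0581 to 0.0784), as was the last without euthyroid replicate 1 or 3 or any siRNA array (0.0512 to 0.102). Median scaling lost both (0.061 and 0.0583), and hepatocyte marker scaling the last (0.179). Gpt2, the mitochondrial form, had means of 12.67, 12.71 and 12.84, Glud1, the glutamate dehydrogenase that frees ammonia, 14.04, 14.05 and 14.09, and Got2, the mitochondrial aspartate aminotransferase, 14.85, 14.63 and 14.62. None of the 3 passed on the probe used, but other probes did: Glud1 gave 1.07 and 0.70 with T3 on 2 dimmer probes (adjusted p over probes 0.00393 and 0.0428) and 1.10 and 0.97 with T3 and the siRNA against euthyroid liver (0.0022 and 0.00971), and Got2 -0.75 with the siRNA against T3 and -1.30 against euthyroid liver on its dimmer probe (0.042 and 0.00343).

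Of the tyrosine genes Hpd changed most. Hpd, the dioxygenase that makes homogentisate, read 13.57, 13.28 and 13.43 on the euthyroid arrays, 12.78, 12.47 and 12.72 with T3 and 11.68, 12.06 and 11.84 with the siRNA. The 3 groups did not overlap and ran downward from euthyroid liver to T3 (-0.77 ± 0.14, adjusted p = 0.00728) and from T3 to the siRNA (-0.80 ± 0.14, adjusted p = 0.00517), so that with the siRNA Hpd was 2.96-fold lower than in euthyroid liver (-1.57 ± 0.14, adjusted p = 0.000412). These 3 calls held in all 22 alternatives. The next enzymes, Hgd, which opens the ring of homogentisate, and Fah, which completes the pathway, had means of 14.15, 13.92 and 13.78 and of 14.94, 14.91 and 14.67 and passed in no comparison. The dimmer probe of Hgd gave -0.98 with T3 and -1.13 with T3 and the siRNA against euthyroid liver (adjusted p over probes 0.00954 and 0.00388).

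The 2 proline genes moved apart. Prodh, the proline dehydrogenase, read 12.94, 12.45 and 12.67 on the euthyroid arrays, 12.66, 12.88 and 12.75 with T3 and 11.72, 11.96 and 11.82 with the siRNA. The T3 arrays lay within the euthyroid range (0.08 ± 0.14, adjusted p = 0.74), and all siRNA arrays lay below (-0.93 ± 0.14, adjusted p = 0.00282; -0.86 ± 0.14, adjusted p = 0.00316 against euthyroid liver). Prodh2, which oxidises hydroxyproline, read 13.47, 13.21 and 13.34 on the euthyroid arrays, 12.37, 12.21 and 12.55 with T3 and 12.62, 12.57 and 12.35 with the siRNA. It fell with T3 (-0.96 ± 0.13, adjusted p = 0.00284) and was not further changed past the threshold with the siRNA (0.14 ± 0.13, adjusted p = 0.485), which left it below euthyroid liver (-0.83 ± 0.13, adjusted p = 0.00264). The 4 calls held in all 22 alternatives, and the other probes of Prodh (1) and Prodh2 (2) gave changes close to these, from -1.02 for Prodh with the siRNA to -0.75 and -0.83 for Prodh2 with T3.

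Tryptophan is opened by Tdo2 and led through kynurenine to nicotinamide nucleotides. Tdo2, the dioxygenase of the first step, read 9.05, 9.06 and 8.71 on the euthyroid arrays, 9.23, 10.01 and 9.54 with T3 and 8.86, 8.61 and 8.62 with the siRNA. The T3 arrays spread widely and lay above both other groups (0.66 ± 0.19, adjusted p = 0.0446 against euthyroid liver; -0.90 ± 0.19, adjusted p = 0.0133 for the siRNA against T3). Kmo, the kynurenine hydroxylase, read 10.67, 10.37 and 10.21 on the euthyroid arrays, 11.02, 11.25 and 10.90 with T3 and 10.74, 10.40 and 10.84 with the siRNA. It was higher with T3 (0.64 ± 0.16, adjusted p = 0.0277), and its siRNA arrays lay below the T3 arrays and overlapped the euthyroid arrays (-0.40 ± 0.16, adjusted p = 0.12). Kynu, the kynureninase, read 12.20, 12.19 and 11.9997 on the euthyroid arrays, 12.39, 12.42 and 12.22 with T3 and 11.90, 11.85 and 11.62 with the siRNA. Its T3 arrays lay just above the euthyroid arrays (0.21 ± 0.12, adjusted p = 0.221) and its siRNA arrays below both (-0.55 ± 0.12, adjusted p = 0.0119).

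Haao, the 3-hydroxyanthranilate dioxygenase, read 13.70, 13.54 and 13.45 on the euthyroid arrays, 13.50, 13.19 and 13.34 with T3 and 12.75, 12.62 and 12.48 with the siRNA. T3 and euthyroid arrays overlapped (-0.22 ± 0.12, adjusted p = 0.245), and the siRNA arrays lay below both (-0.73 ± 0.12, adjusted p = 0.00499; -0.95 ± 0.12, adjusted p = 0.00135 against euthyroid liver); its 2 other probes gave -0.91 and -0.74 against T3. Afmid, the formamidase that yields kynurenine, read 10.86, 10.42 and 10.35 on the euthyroid arrays, 10.37, 10.34 and 10.19 with T3 and 9.67, 9.98 and 9.62 with the siRNA. It was lower with the siRNA (-0.55 ± 0.16, adjusted p = 0.0388; -0.79 ± 0.16, adjusted p = 0.00709 against euthyroid liver), and its 6 other probes gave -0.78 to -0.34 against T3, of which 2 passed over the probes. Both Haao calls held in all 22 alternatives. The rise of Tdo2 was lost without any 1 of 8 arrays, all but T3 replicate 1 (adjusted p = 0.0526 to 0.133; change 0.45 without T3 replicate 2), that of Kmo without euthyroid replicate 2 or 3 or T3 replicate 1 or 2 (0.0541 to 0.0893), and the fall of Afmid against T3 without euthyroid replicate 2, any T3 array or siRNA replicate 1 or 3 (0.0529 to 0.12). With median scaling the falls of Tdo2, Kynu and Afmid against T3 did not pass (0.103, 0.0697 and 0.221), nor did the rises of Tdo2 and Kmo (0.185 and 0.123). With hepatocyte marker scaling the falls of Kynu and Afmid did not pass (0.0711 and 0.185).

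**Figure D3:**
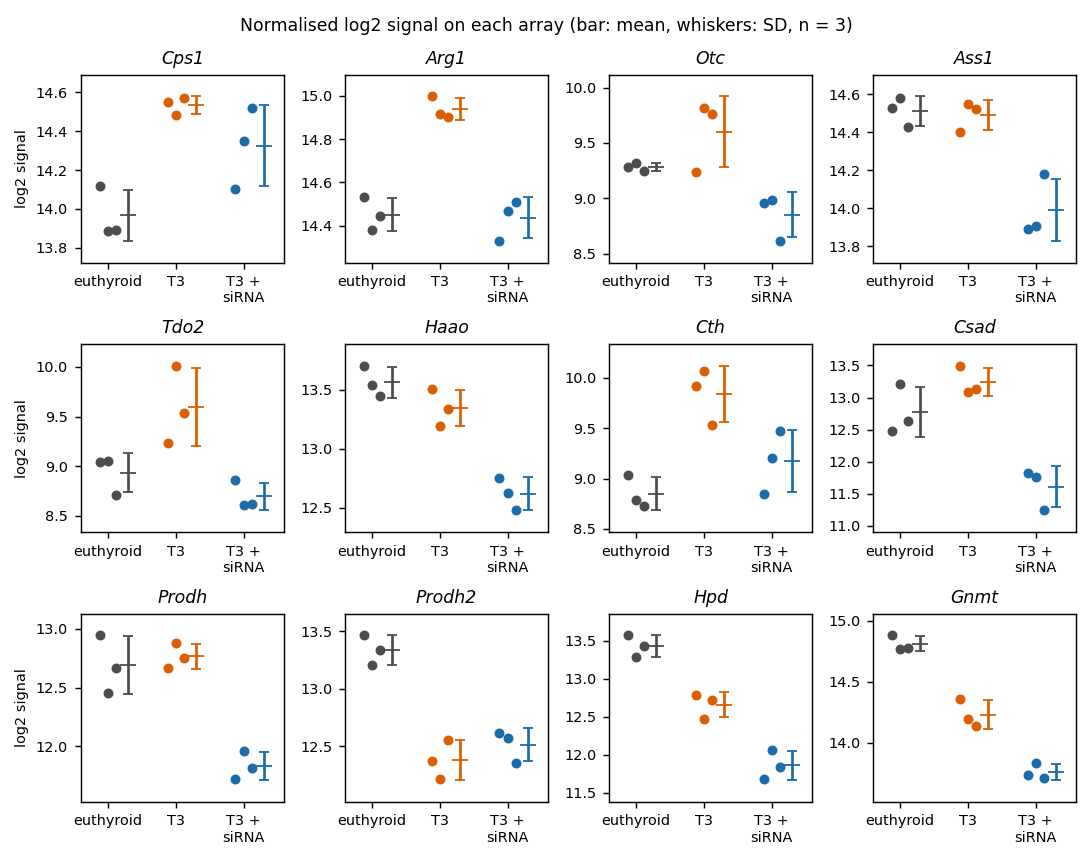
Normalised log2 signal of 12 genes, picked after their values were seen, on each array (points), with the mean and the SD of the 3 arrays of each group beside them; axes differ between panels and do not start at 0. Arg1, Tdo2 and Cth are highest with T3, Csad, Prodh, Ass1 and Haao are lowest with the siRNA, and Hpd and Gnmt step down from euthyroid liver to T3 to the siRNA.

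The 4 histidine enzymes act in sequence and were all lower with T3 and the siRNA than in euthyroid liver. Hal, the histidase, read 13.72, 13.40 and 13.42 on the euthyroid arrays, 13.23, 13.19 and 13.09 with T3 and 12.65, 12.90 and 12.54 with the siRNA. It lay below the T3 arrays with the siRNA (-0.48 ± 0.13, adjusted p = 0.0334) and below euthyroid liver (-0.82 ± 0.13, adjusted p = 0.003), while T3 alone did not pass (-0.34 ± 0.13, adjusted p = 0.0966). Uroc1, the urocanate hydratase, read 13.34, 13.31 and 13.21 on the euthyroid arrays, 12.88, 13.03 and 13.07 with T3 and 12.82, 12.77 and 12.60 with the siRNA. Its siRNA arrays lay below the euthyroid arrays (-0.56 ± 0.10, adjusted p = 0.00543), with T3 alone in between (-0.30 ± 0.10, adjusted p = 0.0728).

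Amdhd1, the imidazolonepropionase, read 13.37, 13.21 and 13.25 on the euthyroid arrays, 12.92, 12.95 and 13.04 with T3 and 12.90, 12.83 and 12.75 with the siRNA. The siRNA group was below euthyroid liver (-0.45 ± 0.10, adjusted p = 0.0091), and T3 alone lay just short of the threshold (-0.31 ± 0.10, adjusted p = 0.0518). Ftcd, the enzyme that passes the formimino group to folate, read 14.07, 14.03 and 14.09 on the euthyroid arrays, 13.78, 13.60 and 13.79 with T3 and 13.67, 13.73 and 13.54 with the siRNA. Its level was lower with T3 (-0.34 ± 0.10, adjusted p = 0.0425) and with T3 and the siRNA (-0.42 ± 0.10, adjusted p = 0.0143), but its dimmer probe gave 0.30 and -0.05. For all 4 genes no T3 array and no siRNA array reached a euthyroid array. Over all genes the groups did not overlap for 40.7% with T3 and for 46.1% with T3 and the siRNA, each against euthyroid liver. The fall of Ftcd with T3 was lost without any 1 of 8 arrays, all but siRNA replicate 3 (adjusted p = 0.0542 to 0.11), and that of Hal against T3 without any T3 array or siRNA replicate 1 or 3 (0.0602 to 0.106). The falls of Hal and Uroc1 against euthyroid liver held in all 22 alternatives, and that of Amdhd1 was not called with median scaling (0.0538) or hepatocyte marker scaling (0.0804). That of Ftcd was lost with hepatocyte marker scaling (0.165), with probes averaged per gene (0.215) and with the probe of the largest spread (0.866), and that of Hal against T3 with either scaling (0.108 and 0.236).

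In serine, glycine and glyoxylate metabolism Agxt, the aminotransferase that removes glyoxylate, read 12.91, 12.74 and 12.60 on the euthyroid arrays, 11.96, 12.03 and 12.07 with T3 and 11.87, 12.17 and 11.49 with the siRNA. It was lower with T3 (-0.73 ± 0.17, adjusted p = 0.0173) and with T3 and the siRNA (-0.91 ± 0.17, adjusted p = 0.0049), and the 2 treated groups overlapped (-0.18 ± 0.17, adjusted p = 0.473). Without euthyroid replicate 1 the first call was lost (adjusted p = 0.0671), and the second held in all 22 alternatives. Gldc, the decarboxylase of the glycine cleavage system, had means of 13.42, 13.49 and 13.24 and passed in no comparison, but its dimmer probe gave 0.75 with T3 and -0.42 with the siRNA against T3 (adjusted p over probes 0.00326 and 0.0269). Amt, its aminomethyltransferase partner, was at the background, with means of 5.35, 5.32 and 5.45.

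Of 10 branched-chain genes 1 was higher with T3, where 7.8% of all genes were higher. With the siRNA 2 were lower than with T3, or 20%. Of all genes 7.72% were lower there, and 19.5% were called in either direction. Against euthyroid liver 6 of 10 were lower with the siRNA, where 13.3% of all genes were lower. Of these 6 calls only 2 were kept with median scaling, which lost Dbt, Ivd, Mccc1 and Pccb (adjusted p = 0.193, 0.0635, 0.15 and 0.0539). Likewise 2 were kept with hepatocyte marker scaling, which lost Dbt, Ivd, Pccb and Hibadh (0.242, 0.0549, 0.0596 and 0.104). Both calls against T3 were lost with either scaling. Mccc2 and Mccc1 encode the 2 subunits of methylcrotonyl-CoA carboxylase, a step of leucine breakdown, and behaved differently with T3. Mccc2 read 8.26, 8.36 and 8.41 on the euthyroid arrays, 8.92, 8.87 and 8.77 with T3 and 8.32, 8.46 and 8.39 with the siRNA. It was higher on every T3 array than on any other array (0.51 ± 0.09, adjusted p = 0.00854; -0.46 ± 0.09, adjusted p = 0.0109 for the siRNA against T3), and with the siRNA it differed from euthyroid liver by 0.05 ± 0.09, adjusted p = 0.746. Mccc1 read 8.63, 8.63 and 8.70 on the euthyroid arrays, 8.30, 8.72 and 8.43 with T3 and 8.21, 7.69 and 7.99 with the siRNA. It did not pass with T3 (-0.17 ± 0.15, adjusted p = 0.464) and was lower with the siRNA (-0.52 ± 0.15, adjusted p = 0.0411; -0.69 ± 0.15, adjusted p = 0.0108 against euthyroid liver). The difference between the 2 genes was not tested.

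Bckdha, a subunit of the branched-chain ketoacid dehydrogenase, read 13.27, 13.003 and 13.07 on the euthyroid arrays, 12.84, 12.87 and 12.83 with T3 and 12.71, 12.61 and 12.26 with the siRNA. Pccb, a subunit of propionyl-CoA carboxylase, read 12.03, 11.99 and 12.14 on the euthyroid arrays, 11.78, 11.73 and 11.75 with T3 and 11.71, 11.56 and 11.29 with the siRNA. Ivd, the isovaleryl-CoA dehydrogenase, read 12.28, 12.12 and 12.24 on the euthyroid arrays, 12.003, 11.99 and 11.90 with T3 and 11.84, 11.60 and 11.71 with the siRNA. In these 3 genes all siRNA arrays lay below all euthyroid arrays, with T3 between. Over all genes 46.1% did not overlap between the siRNA and euthyroid groups. The changes of the siRNA group against euthyroid liver were -0.59 ± 0.13 (adjusted p = 0.0115) for Bckdha, -0.53 ± 0.12 (adjusted p = 0.0117) for Pccb and -0.50 ± 0.10 (adjusted p = 0.00816) for Ivd. Hibadh, a dehydrogenase of valine breakdown and the gene with the FoxO core in its window, was also lower (-0.44 ± 0.10, adjusted p = 0.0104; -0.25 ± 0.10, adjusted p = 0.098 against T3), as did Dbt, another part of the ketoacid dehydrogenase (-0.39 ± 0.12, adjusted p = 0.043). Bckdhb, Bcat2, the branched-chain aminotransferase, and Pcca passed in no comparison, with changes of -0.36 to 0.24, although a dimmer probe of Pcca gave 0.73 with T3 and -0.50 with the siRNA against T3 (adjusted p over probes 0.00345 and 0.0136). The fall of Mccc1 against T3 was lost without any euthyroid array, T3 replicate 2 or 3 or siRNA replicate 2 or 3 (adjusted p = 0.0598 to 0.113), and that of Dbt without any 1 of the 9 arrays (0.0513 to 0.139). The calls of Mccc2 were lost with median scaling (0.116 and 0.415) and that of Bckdha held in all 22 alternatives.

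Sulfur amino acids gave the largest single change. Methionine is activated by Mat1a, its methyl group is passed on by Gnmt among others, and the remainder goes through homocysteine and cystathionine to cysteine and, by way of Cdo1 and Csad, to taurine. Csad, the decarboxylase before taurine, read 12.48, 13.21 and 12.63 on the euthyroid arrays, 13.50, 13.09 and 13.13 with T3 and 11.82, 11.76 and 11.24 with the siRNA. Every siRNA array lay below every other array, 3.09-fold below T3 (-1.63 ± 0.22, adjusted p = 0.00196) and 2.24-fold below euthyroid liver (-1.16 ± 0.22, adjusted p = 0.00628), while T3 alone did not pass (0.47 ± 0.22, adjusted p = 0.174). Its second probe gave -1.75 and -1.16, and both calls held in all 22 alternatives. Cdo1, the cysteine dioxygenase one step earlier, was also lower with the siRNA (-0.60 ± 0.13, adjusted p = 0.0155; -0.42 ± 0.13, adjusted p = 0.0452 against euthyroid liver).

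Gnmt, the glycine methyltransferase that uses up excess methyl groups, read 14.88, 14.77 and 14.78 on the euthyroid arrays, 14.36, 14.19 and 14.14 with T3 and 13.73, 13.83 and 13.71 with the siRNA. As for Hpd, the 3 groups did not overlap and fell from euthyroid liver to T3 (-0.58 ± 0.10, adjusted p = 0.00612) and from T3 to the siRNA (-0.47 ± 0.10, adjusted p = 0.0119; -1.05 ± 0.10, adjusted p = 0.000464 against euthyroid liver). Cth, the lyase that releases cysteine, read 9.04, 8.79 and 8.73 on the euthyroid arrays, 9.92, 10.07 and 9.53 with T3 and 8.85, 9.20 and 9.47 with the siRNA. It was higher on all T3 arrays than on any euthyroid array (0.99 ± 0.19, adjusted p = 0.00981), and the siRNA arrays lay below the T3 arrays (-0.66 ± 0.19, adjusted p = 0.0386), overlapping the euthyroid arrays (0.32 ± 0.19, adjusted p = 0.237). Cbs, the synthase of cystathionine, read 11.81, 12.04 and 11.68 on the euthyroid arrays, 11.92, 11.52 and 11.71 with T3 and 10.90, 11.13 and 11.16 with the siRNA. It did not pass with T3 (-0.13 ± 0.14, adjusted p = 0.565) and was lower with the siRNA than in both other groups (-0.65 ± 0.14, adjusted p = 0.0136 against T3; -0.78 ± 0.14, adjusted p = 0.00494 against euthyroid liver).

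Ahcy, the hydrolase that yields homocysteine, read 13.93, 13.85 and 13.89 on the euthyroid arrays, 13.67, 14.04 and 13.72 with T3 and 13.36, 13.33 and 13.15 with the siRNA. It was lower with the siRNA (-0.53 ± 0.12, adjusted p = 0.0167; -0.61 ± 0.12, adjusted p = 0.00707 against euthyroid liver), with T3 and euthyroid arrays overlapping. Mat1a had means of 15.44, 15.44 and 15.27 and passed in no comparison; its raw signals of 38470 to 46791 were among the highest on the arrays. Bhmt, which remethylates homocysteine with betaine, read 11.56, 11.10 and 10.83 on the euthyroid arrays, 10.96, 13.17 and 11.54 with T3 and 10.97, 10.69 and 10.90 with the siRNA. T3 replicate 2 stood far above the other 8 arrays, and no comparison passed (0.73 ± 0.47, adjusted p = 0.301 with T3; -1.04 ± 0.47, adjusted p = 0.146 for the siRNA against T3). The fall of Cth against T3 was lost without euthyroid replicate 2 or 3, T3 replicate 1 or 2 or siRNA replicate 1 or 2 (adjusted p = 0.0533 to 0.107), those of Ahcy and Cdo1 without siRNA replicate 3 (0.0587 and 0.0535), and that of Cdo1 against euthyroid liver without any euthyroid array, T3 replicate 3 or siRNA replicate 1 or 3 (0.0588 to 0.144). Of the 6 falls against T3, median scaling kept 3, losing Cth, Ahcy and Cdo1 (0.204, 0.0802 and 0.0506). Hepatocyte marker scaling kept 2, losing Gnmt, Cbs, Cth and Ahcy (0.177, 0.0871, 0.121 and 0.0657). Both lost the fall of Cdo1 against euthyroid liver (0.0871 and 0.149).

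Both lysine genes were called once or more. Aass, the bifunctional enzyme of the first steps, read 10.04, 9.79 and 10.16 on the euthyroid arrays, 10.31, 10.46 and 10.17 with T3 and 9.88, 9.80 and 9.98 with the siRNA. It was lower with the siRNA than with T3 (-0.42 ± 0.13, adjusted p = 0.045), without a difference past the threshold from euthyroid liver (-0.11 ± 0.13, adjusted p = 0.567). Its dimmer probe was higher with T3 (0.92, adjusted p over probes 0.0397) and gave -0.33 for the siRNA against T3 and 0.59 against euthyroid liver (0.43 and 0.13). Gcdh, the glutaryl-CoA dehydrogenase, read 14.15, 13.85 and 13.90 on the euthyroid arrays, 13.59, 13.45 and 13.54 with T3 and 13.45, 13.43 and 13.17 with the siRNA. Its brightest probe was lower with T3 (-0.44 ± 0.12, adjusted p = 0.0336) and with T3 and the siRNA (-0.62 ± 0.12, adjusted p = 0.00675), but its dimmer probe gave 0.31 with T3 and -0.80 for the siRNA against T3. The call of Aass was lost without euthyroid replicate 1, any T3 array or any siRNA array (adjusted p = 0.053 to 0.119), and the fall of Gcdh with T3 without any T3 or euthyroid array (0.0521 to 0.113). The call of Aass was also lost with median scaling and hepatocyte marker scaling (0.368 and 0.3).

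**Figure D4:**
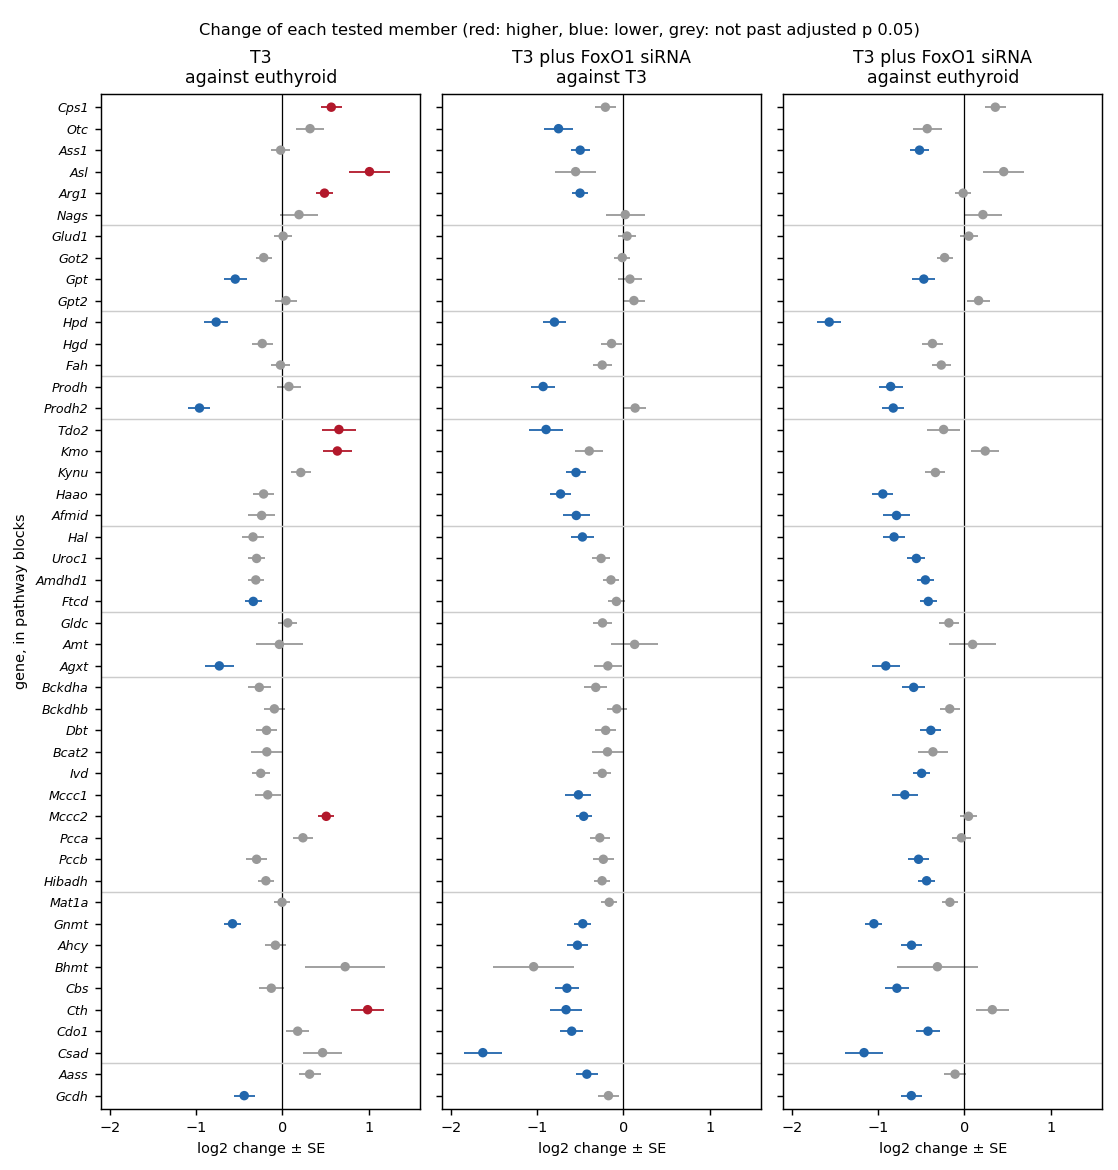
Log2 change of each of the 47 tested genes (points) with the SE of the fit (bars), n = 3 arrays a group, in the 3 comparisons; genes stand in pathway blocks from urea cycle (top) to lysine (bottom). The first panel holds 7 red and 7 blue points, the second 19 blue and no red, and the third 24 blue and no red.

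Of the 47 genes 24 had several tested probes. All probes of a gene ran the same way for 18 of the 24 with T3 against euthyroid liver, for 23 with the siRNA against T3 and for 20 with the siRNA against euthyroid liver. Of the 14 genes called with T3, 7 had several tested probes, which ran the same way for all but Ftcd and Gcdh. Of the 19 called with the siRNA against T3, 11 had several probes, and of the 24 called against euthyroid liver 14 had several, in each case with the same direction for all probes of a gene. The other called genes had 1 tested probe, which allows no such check. These counts were added after the values were seen.

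**Figure D5:**
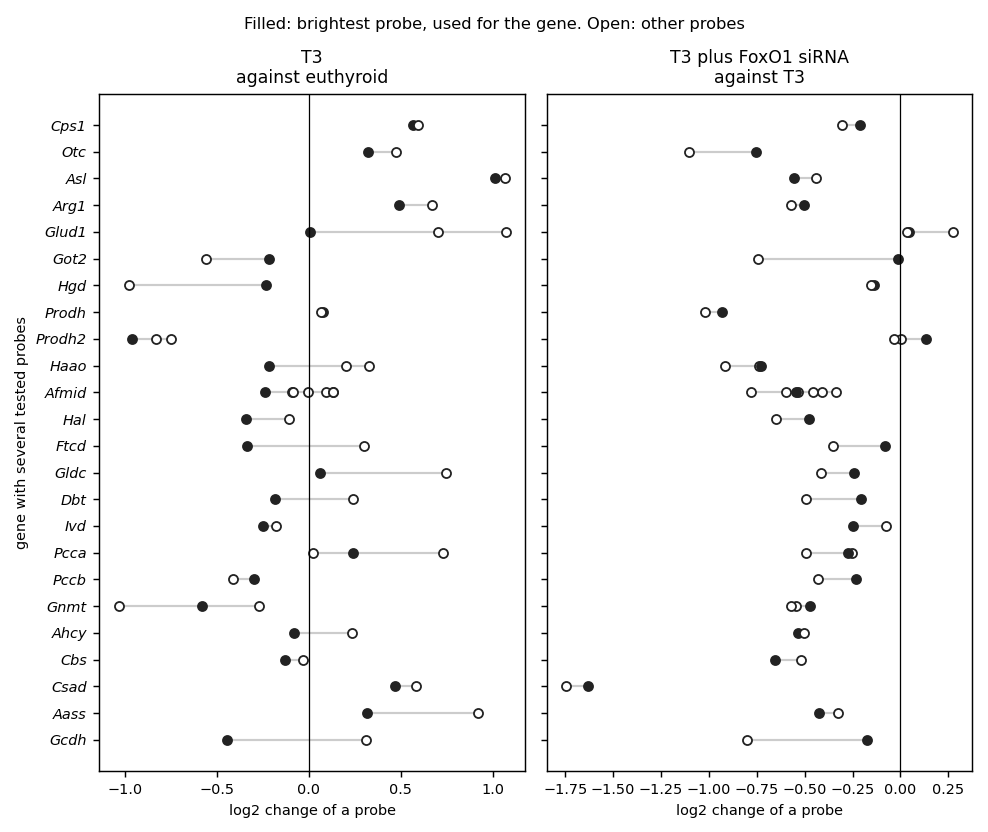
Log2 change of every tested probe of the 24 genes with several (filled points: the brightest probe, used for the gene; open points: the others; a line joins the probes of a gene) for T3 against euthyroid liver (left) and the siRNA against T3 (right). On the right all points but those of Glud1 and Prodh2 lie at or below 0; on the left the probes of Haao, Afmid, Ftcd, Dbt, Ahcy and Gcdh fall on both sides of 0.

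Other genes of the same pathways, 58 of them tested, were counted from a list of their own: 7 were higher and 5 lower with T3, 2 higher and 12 lower with the siRNA against T3, and 5 higher and 20 lower with the siRNA against euthyroid liver, with medians of -0.09, -0.17 and -0.24. The called shares were 20.7%, 24.1% and 43.1%, against 18.4%, 19.5% and 26.7% of all genes called in either direction. By direction, 7.8% of all genes were higher and 10.6% lower with T3. With the siRNA against T3, where 12 of the 58 were lower, 11.7% of all genes were higher and 7.72% lower. Against euthyroid liver, where 20 of the 58 were lower, 13.4% were higher and 13.3% lower. With T3 Oat, the ornithine aminotransferase (-1.75 ± 0.29, adjusted p = 0.00568), was lower, and Psat1, of serine synthesis (2.21 ± 0.42, adjusted p = 0.00934), Kyat3, a kynurenine aminotransferase (1.27 ± 0.14, adjusted p = 0.00135), and the mitochondrial aspartate-glutamate carrier Slc25a13 (0.51 ± 0.14, adjusted p = 0.0334) were higher. Slc25a13 was lower with the siRNA than with T3 (-0.93 ± 0.14, adjusted p = 0.00274), as were Suox, the sulfite oxidase that completes cysteine breakdown (-0.83 ± 0.12, adjusted p = 0.00295), and Dhtkd1 of the lysine pathway (-0.87 ± 0.23, adjusted p = 0.0317). Oxct1, the ketone body transferase that hepatocytes scarcely express, was higher with the siRNA (1.37 ± 0.14, adjusted p = 0.000606).

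Of 15 tested amino acid transporters 1 was higher and 2 lower with T3, none higher and 3 lower with the siRNA against T3, and 4 lower with the siRNA against euthyroid liver. These are 20%, 20% and 26.7% of the list, against 18.4%, 19.5% and 26.7% of all genes called in either direction. In the last 2 comparisons all transporter calls were lower, where 7.72% and 13.3% of all genes were lower. The neutral amino acid carrier Slc38a4 (-0.96 ± 0.15, adjusted p = 0.00334) and the cationic carrier Slc7a2 (-0.87 ± 0.16, adjusted p = 0.00714) were lower with the siRNA than with T3, while the glutamine carrier Slc38a3 (-0.72 ± 0.11, adjusted p = 0.0044) and the glutamate carrier Slc1a2 (-0.98 ± 0.18, adjusted p = 0.00763) were lower with T3 than in euthyroid liver. Of 15 regulators of these enzymes 3 were higher with T3, among them Cebpb (0.85 ± 0.11, adjusted p = 0.00243) and Hnf4a (0.49 ± 0.12, adjusted p = 0.0196), and 7 were lower with the siRNA against T3, among them Foxo1, Ppara (-0.92 ± 0.22, adjusted p = 0.0188) and Ppargc1a, the coactivator of the fasting response (-0.76 ± 0.23, adjusted p = 0.0449). Against euthyroid liver 3 regulators were lower with the siRNA. The called shares were 20%, 46.7% and 20%, against 18.4%, 19.5% and 26.7% of all genes called in either direction. The first 2 shares include Foxo1 itself, which was higher with T3 and which the siRNA targets. All regulator calls with T3 were higher, where 7.8% of all genes were higher. In the other 2 comparisons all were lower, where 7.72% and 13.3% of all genes were lower.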

How the data were processed

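The authors deposited probe intensities on a linear scale beside detection p-values, per the file headers, and a table of intensities whose 9 columns share 1 distribution, that is, quantile normalized. Partek 6.6 is named with no step, per the submitters' processing notes. From the first table, limma 3.58.1 (R 4.3.3) ran neqc: background correction with negative controls implied by those p-values, an offset of 16, quantile normalization and log2. Probes detected (p under 0.05) on at least 3 of 9 arrays were kept, and the brightest probe stood for its gene. Of 45281 probes 34885 carried 1 symbol, 18 several and 10378 none. A model of 3 group means over all 9 arrays was fitted with lmFit and eBayes, two-sided, and adjusted over 10408 genes. The number of arrays limits the precision. A second fit covered 15754 probes, for values given over probes. The members and gene lists were chosen with earlier results of these data known. Values on every array are given for called genes, at most 5 a pathway, and at most 3 called genes per other list and comparison are named. The model was tested on simulated data.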

Additional observations from a re-analysis of the deposited data

How the results depend on the processing

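Of 57 called values of single enzymes 20 passed the threshold in all 22 alternatives (9 of them leaving out 1 array) and 37 were lost in at least 1. With T3, the number of enzymes higher was 2 with median scaling and 11 with probes averaged per gene or the probe with the largest spread. The number lower was 4 with median scaling and 12 with a trended and robust variance prior. Of all genes 2.89%, 8.7% and 9.31% were higher in the first 3 of these settings. With median scaling 5.91% of all genes were lower, and with the trended prior 13%. For the siRNA against T3, the number lower was 8 with median scaling and 7 with the hepatocyte marker scaling. Of all genes 1.89% and 2.85% were then lower. For the siRNA against euthyroid liver, 1 enzyme was higher without background correction, with the authors' normalized values, with probes detected on all 9 arrays, with the mean of probes, the probe with the largest spread, array weights, the trended prior or the hepatocyte marker scaling, and 15 were lower with the last. Leaving out 1 array gave 3 to 6 higher and 3 to 7 lower with T3. It gave 0 higher and 12 to 17 lower for the siRNA against T3, and 0 to 2 higher and 21 to 24 lower against euthyroid liver. Of all genes 3.82% to 8.05% were then higher and 4.77% to 11.2% lower with T3. For the siRNA against T3 these shares were 7.29% to 10.6% and 3.96% to 6.43%. Against euthyroid liver they were 8.57% to 14.2% and 7.7% to 13.9%. Ftcd (0.298) and Gcdh (0.312) reversed with T3 with the probe of the largest spread, since another probe is then used. Of all calls for the siRNA against T3, 60.3% were higher, 88.7% with median scaling and 90.1% with the hepatocyte marker scaling; the shares were 42.4%, 32.9% and 29.5% with T3, and 50.3%, 73.6% and 76.2% for the siRNA against euthyroid liver. The cause of these shifts was not tested. The labels do not say whether replicate numbers pair the arrays. Deviations of arrays with the same number correlated by -0.056 to 0.028, and those with different numbers by -0.064 to 0.081. These values show no shared deviation, but with 3 arrays a group they cannot settle whether arrays were paired. With the replicate block, 5 enzymes were higher and 6 lower with T3, 0 and 16 for the siRNA against T3, and 0 and 23 for the siRNA against euthyroid liver. The shares of all genes were 6.39% and 8.23%, 10.1% and 5.87%, and 11.8% and 10.9%. The slide as a block was not run, since no slide is given in the sources used here. The hepatocyte marker scaling and the count by probe direction were chosen after seeing the data.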
